A study of Homo sapiens with 4 samples.

Results

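The 47 genes described here encode the degradative enzymes of the lysosome, the proteins of its membrane, the enzyme that tags hydrolases for delivery to it, and 2 transcription factors that control such genes. They were taken as a list of gene symbols, and each was measured by the brightest of its probe sets that carry exactly 1 gene symbol. All 47 were among the 18132 genes with such a probe set, and 46 were among the 14122 genes bright enough to be tested. The exception was IDUA, the iduronidase of heparan and dermatan sulfate breakdown, whose mean intensity of 11.9 lay just under the limit of 12.04. The dimmest member tested was CTSS (cathepsin S), with a mean of 12.95.

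SCC-9 cells, a human line established from a squamous carcinoma of the tongue, received either a mimic of miR-585-5p or a control small RNA called miR-NC. Both RNAs were given at 30 nM, and cells were collected for total RNA 36 hours after transfection. There were 2 arrays per group, all from the same cell line, and the comparison asks which transcripts change with added miR-585-5p. The labels do not say whether the 2 arrays of a group came from separate cultures, so the p-values measure the spread between these arrays, which can be technical.

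Lysosomes are acidic compartments in which hydrolases break down glycolipids, glycans, proteins and other lipids delivered by endocytosis and autophagy. Most soluble hydrolases receive a mannose 6-phosphate tag in the Golgi, are carried onward by mannose 6-phosphate receptors, and work at the low pH kept up by a proton pump, the V-ATPase. TFEB, TFE3 and MITF are related transcription factors that bind an E-box variant, the CLEAR element, near many lysosomal genes, and mTORC1 at the lysosomal surface holds them in the cytoplasm when nutrients are plentiful.

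The mimic corresponds to the mature strand encoded at chr5:169263649-169263670 (GRCh38.p14, minus strand, RefSeq), shown here because it is the only agent that differs between the groups. Capitals mark the seed, bases 2 to 8 of the strand, the stretch through which a microRNA mainly recognises its targets.
hsa-miR-585-5p: cUAGCACAcagauacgcccaga
Of 2545 mature strands in the RefSeq table, 1 has this seed, miR-585-5p itself. Its level was not analysed here, and target transcripts were not searched for the seed.

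Across the 46 members tested, 14 rose and 14 fell with the mimic (limma adjusted p under 0.05), and 18 did not pass. Over all genes tested 28.1% were called higher and 26.9% lower, 55.0% in all, against 60.9% of the members. The members' median log2 change (mimic minus control) was 0.03, and that of all genes -0.06. Mimic and control arrays did not overlap for 40 of the 46 members, where 79.4% of all genes had no overlap. Changes of at least 2-fold were found in 3 members, the ganglioside activator GM2A, the fucosidase FUCA1 and the cathepsin CTSV, beside 8.16% of all genes. As a list the members therefore lay near the background, and the account that follows is of single genes and roles.

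How many members count as higher or lower depends on how the arrays are scaled. Bacterial poly(A) RNAs, spiked in ahead of labelling, had a log2 difference (mimic minus control) of 0.35, and the spikes added at hybridization one of -0.05. Scaling to the poly(A) spikes lowers every gene by that offset, moves the median of all genes from -0.06 to -0.40, and turns the split of members from 14 higher and 14 lower to 4 higher and 29 lower, with 16.4% of all calls higher instead of 51.1%. All values given below are on the deposited scale. In this bulk RNA, less transcript per cell and fewer cells that express a gene cannot be told apart. GAPDH probe sets at the 3' end read 1.11 times those at the 5' end with the mimic on either array, and 1.22 and 1.16 times with miR-NC. For ACTB the same ratios were 14.3 on each mimic array and 14.4 and 13.8 on the control arrays. The epithelial markers KRT5, KRT14, CDH1, EPCAM and DSP were above background on every array, with gene means from 956 to 7840, with sums of 17756 to 18388 for the mimic and 14302 to 15000 for miR-NC. Within that list CDH1 (E-cadherin) fell (-1.26 ± 0.06) and KRT14, a basal keratin, rose (0.97 ± 0.05). Of 8 leukocyte and macrophage markers 4 were above background on every array, none with a mean above 76.9, and PTPRC, which marks leukocytes, was not. Their summed intensity was 190.0 to 204.7 in the mimic group and 185.0 to 186.4 in the control group, a sum in which CD14 rose (0.68 ± 0.12) and CSF1R and TYROBP fell (-0.39 ± 0.13 and -0.41 ± 0.13). AIF1, not above background with the mimic, was at least 1.26-fold lower. The sum of 7 fibroblast markers, 1 of them (PDGFRB) above background throughout, was 100.1 to 101.3 against 95.6 to 97.1, and that of 4 endothelial markers, 3 of them above background, 104.0 to 120.7 against 141.7 to 152.0. Within the endothelial list KDR fell (-0.73 ± 0.15), while VWF and PECAM1 did not pass (-0.11 ± 0.11 and -0.09 ± 0.14). The part of these differences in the results was not tested.

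**Figure D1:**
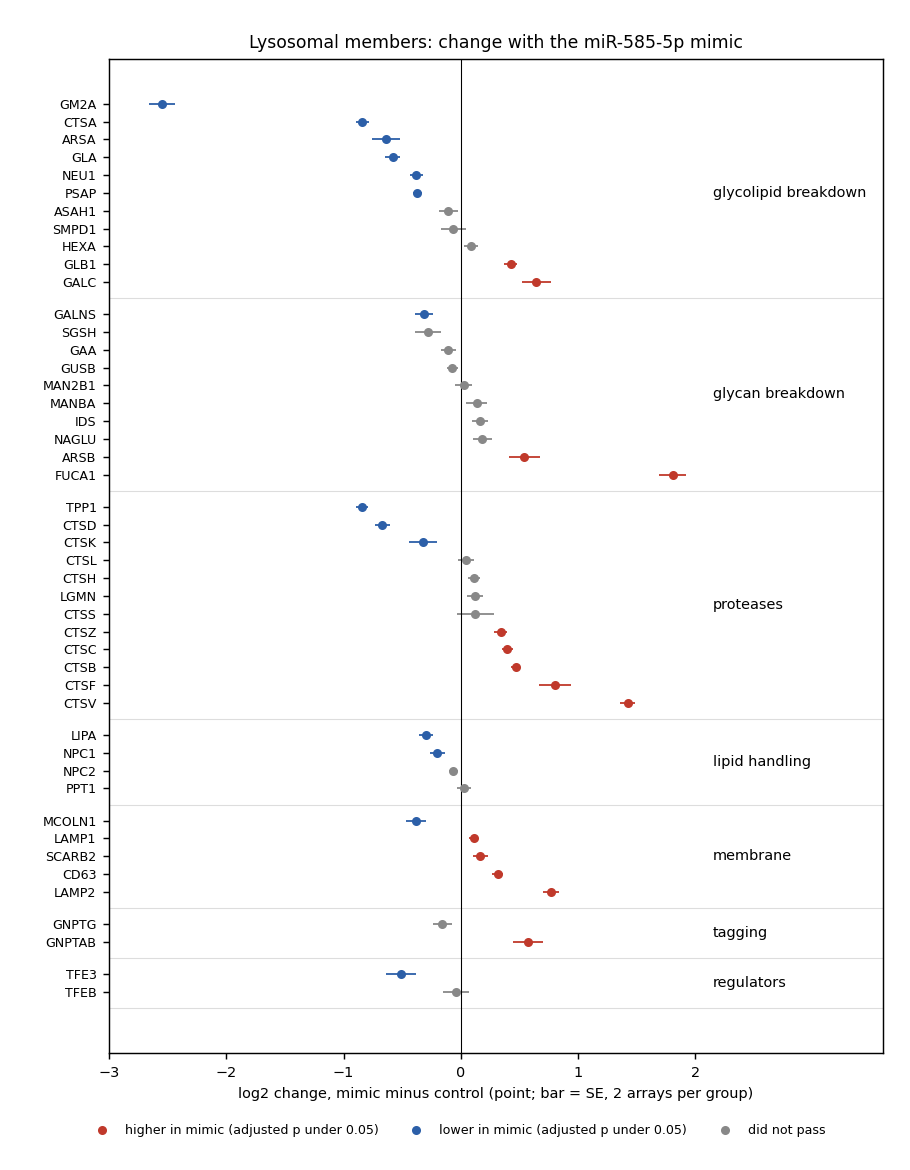
Log2 change (mimic minus control) of the 46 members tested, grouped by role, with the SE as a bar (2 arrays per group) and the colour giving the call at an adjusted p under 0.05. GM2A at -2.55 and FUCA1 at 1.81 are the outermost points, 14 members are marked higher and 14 lower, and in the glycolipid group 6 of 11 lie on the lower side as calls.

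Of the 11 genes of glycolipid breakdown 6 fell, 2 rose and 3 did not pass, with a median log2 change of -0.37. GM2A, the activator protein that lifts ganglioside GM2 out of the membrane and presents it to hexosaminidase A, changed most of all members. Its intensity was 211.0 and 159.3 on the mimic arrays, against 1124 and 1027 for the controls. Both mimic arrays were far below both control arrays, a 5.86-fold fall (-2.55 ± 0.11 on the log2 scale, limma adjusted p = 3.20e-08, where ± gives the SE from 2 arrays per group here and below). The other 3 probe sets of GM2A fell too. In 2 of them, measured above background in both groups, the log2 changes were -0.88 and -1.57, and the third was not above background with the mimic and was at least 1.91-fold lower, so the size depends on the probe set. Averaging the 4, the dim one included, gave -1.57, as did the brightest one without a cross-hybridizing suffix. HEXA, the alpha subunit of the hexosaminidase that GM2A serves, read 666 and 677 in mimic-treated cells and 623 and 640.5 in control cells. It did not pass (0.09 ± 0.06, limma adjusted p = 0.209), and none of its 5 other probe sets above background passed. With the poly(A) spikes HEXA was called lower (-0.26). Its sign was also negative, but not a call, without cross-hybridizing probe sets (-0.37) and when its 8 probe sets were averaged (-0.0024).

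The 3 proteins of the lysosomal multienzyme complex, in which the carboxypeptidase CTSA protects the galactosidase GLB1 and the sialidase NEU1 from degradation, did not move together. CTSA read 623 and 595 with the mimic and 1081 and 1100.1 with miR-NC, and it fell by 0.84 ± 0.05 on the log2 scale (limma adjusted p = 4.37e-07), as did its other probe set. NEU1 read 641 and 631 against 810 and 844 and fell by 0.38 ± 0.06. GLB1 moved the other way, from 699.5 and 713 on the control arrays to 960 and 937 on the mimic arrays, a rise of 0.42 ± 0.05 that both of its other probe sets shared. No array of 1 group reached into the range of the other for any of the 3, which was also so for 79.4% of all genes tested. With the poly(A) spikes the change of GLB1 was 0.08 and no longer a call.

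GLA, the alpha-galactosidase that is lacking in Fabry disease, read 349.8 and 347.6 on the mimic arrays, against 503 and 541 for the controls. It fell by 0.58 ± 0.07 (limma adjusted p = 2.27e-05), but neither of its 2 other probe sets passed, and without cross-hybridizing probe sets the change was -0.31 and not a call. ARSA, the sulfatase of sulfatide, went from 57.7 and 56.9 to 39.5 and 34.4, a change of -0.64 ± 0.12, which was -0.40 when its 3 probe sets were averaged. PSAP, the precursor of the saposins that assist sphingolipid hydrolases, fell from 4927 and 4925 to 3863 and 3759, a change of -0.37 ± 0.04. GALC, the galactosylceramidase lacking in Krabbe disease, rose from 26.1 and 25.9 to 38.3 and 43.1 (0.64 ± 0.12, limma adjusted p = 0.00119). Another GALC probe set, above background on both mimic arrays but on only 1 of 2 control arrays (13.8 and 18.5), rose by 1.71 ± 0.16, while the change was 0.42 with the 5 averaged and 0.30, not a call, with the poly(A) spikes. The sphingomyelinase SMPD1 (-0.07) and the ceramidase ASAH1 (-0.11) did not pass, although 2 of 4 other ASAH1 probe sets above background rose.

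Genes of glycan breakdown mostly did not pass: 2 of 10 tested rose, 1 fell and 7 showed log2 changes between -0.28 and 0.18. FUCA1, which removes fucose from glycoproteins and glycolipids, was the exception in size. It read 194.2 and 188.0 in mimic-treated cells and 48.6 and 61.2 in control cells. The groups were well apart, with a 3.50-fold rise (1.81 ± 0.12, limma adjusted p = 3.92e-07), and both other probe sets of FUCA1 rose, one by 1.94 and the other, not above background in control cells, at least 2.16-fold. ARSB, a sulfatase of dermatan and chondroitin sulfate, read 33.9 and 32.8 against 24.5 and 21.4 (0.54 ± 0.13, limma adjusted p = 0.00485). Of its 3 other probe sets above background 1 rose and 2 did not pass (0.03 ± 0.14 and 0.30 ± 0.14). ARSB did not pass without mimic replicate 1 (0.52), without mimic replicate 2 (0.57) or with the poly(A) spikes (0.20). GALNS, a sulfatase of keratan sulfate, fell from 525 and 602 to 474 and 432 (-0.31 ± 0.08), and was not called without mimic replicate 2 (-0.25) or without cross-hybridizing probe sets (-0.20).

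The 7 glycan enzymes that did not pass included the glucuronidase GUSB, often used as a reference gene, at 1207 and 1192 with the mimic and 1260.4 and 1261.2 with miR-NC. GUSB was called lower after a further quantile normalization (-0.15) and with the poly(A) spikes (-0.42). The acid glucosidase GAA of glycogen breakdown was at -0.11, the mannosidases MAN2B1 and MANBA at 0.02 and 0.14, and the heparan sulfate enzymes NAGLU, IDS and SGSH at 0.18, 0.16 and -0.28. SGSH was called lower without control replicate 2 (-0.41), after a further quantile normalization (-0.33), with the 50th percentile filter (-0.28) and with the poly(A) spikes (-0.63), and NAGLU and IDS were called higher with the hybridization spikes (0.23 and 0.22). With the poly(A) spikes MAN2B1 was called lower (-0.32), and MANBA, NAGLU and IDS had negative signs but were not called (-0.21, -0.16 and -0.18). The probe sets of IDS, the iduronate sulfatase, disagreed: of the 4 others above background 2 rose and 1 fell.

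**Figure D2:**
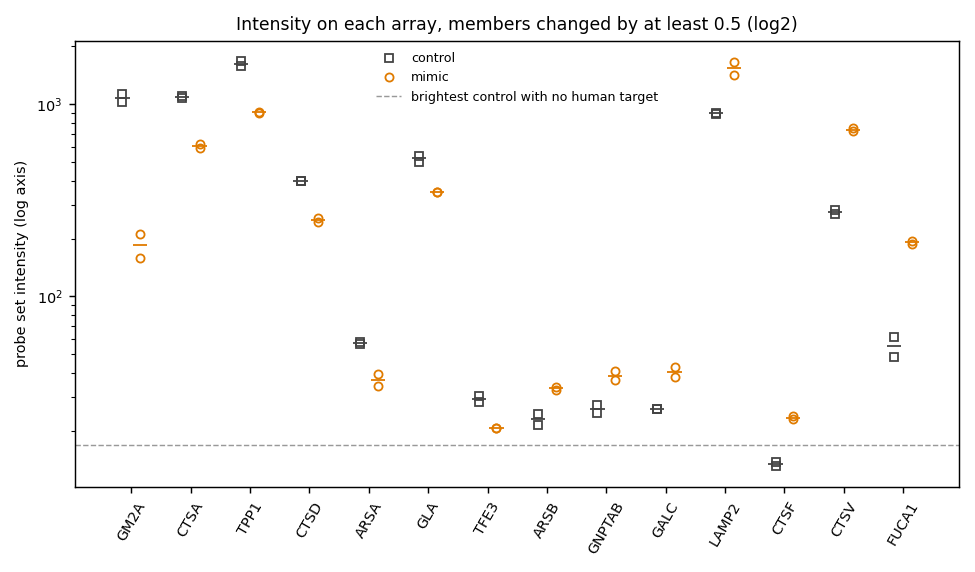
Probe set intensity on each array (log axis) for the 14 members past the threshold whose log2 change was at least 0.5 in size, squares for control and circles for mimic, with the group mean as a short line and the brightest control probe set with no human target (16.8) as a dashed line. The circles and squares of each gene do not overlap, which is also so for 79.4% of all genes tested. GM2A and FUCA1 are the most separated, and the control values of CTSF lie under the dashed line.

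Among the 12 proteases 5 rose, 3 fell and 4 did not pass. CTSV, a cysteine cathepsin closely related to cathepsin L and found in thymus, testis and squamous epithelium, read 748 and 727 on the mimic arrays, against 268 and 282 for the controls. The groups lay far apart, and the rise was 2.68-fold (1.42 ± 0.06, limma adjusted p = 3.49e-08). The other 2 probe sets of CTSV rose by 1.65 and 2.07. CTSL itself read 530 and 491 in mimic-treated cells and 512 and 477 in control cells, overlapping ranges with a change of 0.05 ± 0.07. The change was negative without mimic replicate 1 (-0.0086) and without control replicate 2 (-0.0045). With the poly(A) spikes CTSL was called lower (-0.30).

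The cysteine cathepsins CTSB, CTSC and CTSZ rose by smaller amounts. CTSB read 3141 and 3175 against 2306 and 2263 (0.47 ± 0.04), and its other 3 probe sets rose as well. CTSC, which activates granule proteases, read 2213 and 2127 against 1620 and 1673 (0.40 ± 0.05). Of the other 2 CTSC probe sets 1 rose (0.39 ± 0.10) and 1 did not pass (-0.10 ± 0.06), with 1173 and 1118 against 1161 and 1297. CTSZ, a carboxypeptidase, read 2547 and 2834 against 2095 and 2146 (0.34 ± 0.05). With the poly(A) spikes none of these 3 was called, at 0.12 for CTSB, 0.05 for CTSC and -0.0042 for CTSZ. CTSF, a further cysteine cathepsin, read 23.0 and 23.9 with the mimic and 13.8 and 13.1 with miR-NC, the latter not above the controls with no human target. With the mimic CTSF was at least 1.52-fold higher (limma adjusted p = 5.11e-04).

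The lower proteases were an aspartic, a serine and a cysteine peptidase. TPP1, the tripeptidyl peptidase lacking in a neuronal ceroid lipofuscinosis, fell from 1677 and 1578 on the control arrays to 912 and 905 on the mimic arrays (-0.84 ± 0.05, limma adjusted p = 3.08e-07). Of its 7 other probe sets above background 4 fell and 3 did not pass, and the change was -0.39 with the mean of all 9 and -0.44 without cross-hybridizing ones. CTSD, the aspartic cathepsin, fell from 397.8 and 397.6 to 245.1 and 255.5 (-0.67 ± 0.07, limma adjusted p = 1.00e-05), and both other probe sets fell by similar amounts. CTSK, the collagen-degrading cathepsin of osteoclasts, was dim, at 48.6 and 48.0 against 65.8 and 55.2 (-0.32 ± 0.12, limma adjusted p = 0.0419). That call was lost without either mimic array (-0.33 without replicate 1, -0.31 without replicate 2), without control replicate 1 (-0.19), and with the hybridization spikes (-0.27). CTSH (0.11), LGMN, an asparaginyl peptidase (0.12), and CTSS (0.12) did not pass. CTSH was called higher without control replicate 2 (0.15) and with the hybridization spikes (0.16), but its other probe set, which is dim, fell (-0.48 ± 0.19). With the poly(A) spikes CTSH (-0.24) and LGMN (-0.22) were called lower, and CTSS (-0.22) was not called.

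**Figure D3:**
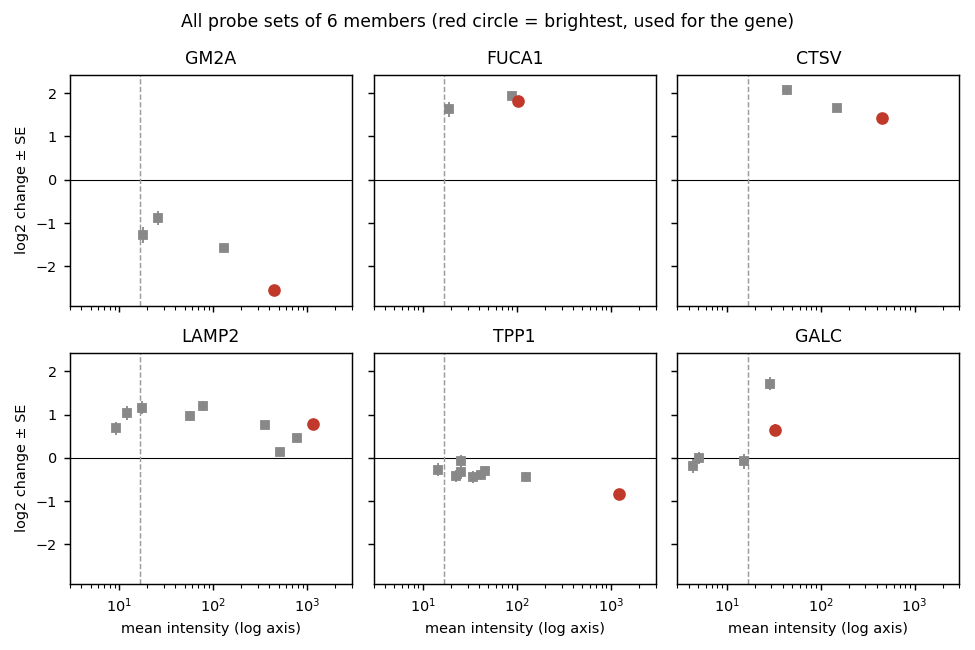
Log2 change with its SE against mean intensity (log axis) for every probe set of GM2A, FUCA1, CTSV, LAMP2, TPP1 and GALC, the brightest one as a red circle and the others as grey squares; the dashed line is the brightest control with no human target (16.8). All 4 GM2A probe sets lie below 0 and all 9 of LAMP2 above it, while the brightest TPP1 probe set changed more (-0.84) than the 8 dimmer ones.

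Of the 4 genes of lipid handling 2 fell and 2 did not pass. LIPA, the acid lipase of cholesteryl esters, went from 1049 and 1118 to 913 and 848 (-0.30 ± 0.06, limma adjusted p = 0.00132), and was not called without cross-hybridizing probe sets (-0.17). NPC1, the membrane protein that exports cholesterol, read 386 and 384 against 434 and 450.3 (-0.20 ± 0.06, limma adjusted p = 0.0197). It was not called without either mimic array (-0.20 without replicate 1, -0.19 without replicate 2), without control replicate 2 (-0.17), with the hybridization spikes (-0.15) or with the mean of both probe sets (-0.14). NPC2, the soluble partner that hands cholesterol to NPC1, was at 5143 and 4990 against 5191 and 5398, and did not pass (-0.06 ± 0.04). NPC2 was called lower after a further quantile normalization (-0.12) and with the poly(A) spikes (-0.41). For PPT1, which removes palmitate from proteins, the brightest probe set read 1012 and 984 against 930 and 1033 (0.03 ± 0.06), but 4 of its 5 other probe sets fell. The change of PPT1 was -0.30 without cross-hybridizing probe sets and -0.25 with the mean of all 6, both past the threshold, and -0.05 without control replicate 1.

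All 5 membrane proteins passed the test, 4 higher and 1 lower. LAMP2, a heavily glycosylated membrane protein whose splice forms serve chaperone-mediated autophagy and autophagosome fusion, read 1423 and 1650 on the mimic arrays, against 892 and 902 for the controls. Mimic values lay well above control values, by 0.77 ± 0.07 on the log2 scale (limma adjusted p = 3.70e-06). Of its 7 other probe sets above background in at least 1 group 6 rose. In 4 of these, measured above background in both groups, the rise was between 0.47 and 1.19, and 2 were not above background in control cells and were at least 1.69-fold and 1.13-fold higher. The remaining one was at 0.13 ± 0.07 (464 to 550.1 over the arrays), so the probe sets of LAMP2 differed in size. LAMP2 was at 0.43 with the poly(A) spikes, still a call. LAMP1, an abundant relative of LAMP2, read 6895 and 6700 against 6334 and 6269, a rise of 0.11 ± 0.04 that was lost without mimic replicate 1 (0.09) or mimic replicate 2 (0.13) and was 0.26 without cross-hybridizing probe sets. CD63, a tetraspanin of late endosomes and exosomes, rose from 1572 and 1638 to 1971 and 2025 (0.32 ± 0.05, limma adjusted p = 1.87e-04). SCARB2, the receptor that carries glucocerebrosidase to lysosomes, rose by 0.17 ± 0.06 and lost its call without either mimic array (0.14 without replicate 1, 0.19 without replicate 2) and without control replicate 1 (0.07). With the poly(A) spikes LAMP1 was called lower (-0.24), and CD63 (-0.03) and SCARB2 (-0.18) were not called. After a further quantile normalization LAMP1 (0.05) and SCARB2 (0.10) were not called. MCOLN1, the calcium channel TRPML1, fell from 179 and 201.5 to 143 and 148 (-0.38 ± 0.09, limma adjusted p = 0.00344), and was not called without mimic replicate 1 (-0.35).

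The tagging enzyme, GlcNAc-1-phosphotransferase, is built from subunits encoded by GNPTAB and GNPTG. GNPTAB read 36.6 and 40.9 against 24.9 and 27.1 (0.58 ± 0.13, limma adjusted p = 0.00289), but the only other probe set above background did not pass (0.04 ± 0.14). The call of GNPTAB was lost without mimic replicate 2 (0.50), without cross-hybridizing probe sets (0.04) and with the poly(A) spikes (0.23). GNPTG was at 158 and 163 against 180.1 and 178.0 and did not pass (-0.16 ± 0.08).

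Of the transcription factors, TFEB read 133 and 113 in mimic-treated cells and 137 and 117 in control cells, overlapping ranges with a change of -0.04 ± 0.11. Its sign was positive without mimic replicate 2 (0.08), without control replicate 1 (0.07) and with the hybridization spikes (0.01). With the poly(A) spikes TFEB was called lower (-0.39). TFE3 was dim, at 20.6 and 20.7 with the mimic and 28.3 and 30.5 with miR-NC, a change of -0.51 ± 0.13 (limma adjusted p = 0.00633) that was not called without mimic replicate 1 (-0.51) or mimic replicate 2 (-0.51).

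The letters of the factors' binding element were looked for in the members' promoters, since members with and without it moved in both directions. RefSeq windows of 300 bases (GRCh38.p14, 250 before the start and 50 after it) were found for 35 of the 47 members. The E-box CACGTG, a palindrome and so the same on both strands, stood in 10 of the 35 (28.6%), in 7.43% of all 27305 windows and in 9.51% of the 11402 windows of genes tested. The longer TCACGTG, the core of the CLEAR element, which contains CACGTG and was searched on both strands, stood in 9 of the 35 (25.7%), against 3.82% and 5.33%. CACGTG was found in 5 of 11 windows of members called lower, 3 of 12 of those called higher and 2 of 11 of those that did not pass (the window of IDUA, not tested, holds none). None of the windows of GM2A, FUCA1, CTSV and TPP1 holds these letters. The stretches below are those of the 5 lower members with a match and of LAMP1, whose window holds 6 matches, and capitals mark CACGTG. They lie at chr20:45891266-45891325 (CTSA, plus strand), chr6:31862915-31862974 (NEU1, minus), chr11:1763942-1764001 (CTSD, minus), chr16:88857089-88857148 (GALNS, minus), chr19:7522556-7522615 (MCOLN1, plus) and chr13:113297020-113297079 (LAMP1, plus).
CTSA: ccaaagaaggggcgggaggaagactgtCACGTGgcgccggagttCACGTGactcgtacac
NEU1: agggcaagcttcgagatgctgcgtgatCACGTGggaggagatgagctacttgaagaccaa
CTSD: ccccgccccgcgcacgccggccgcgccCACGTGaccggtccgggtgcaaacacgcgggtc
GALNS: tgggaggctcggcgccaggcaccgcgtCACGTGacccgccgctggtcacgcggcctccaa
MCOLN1: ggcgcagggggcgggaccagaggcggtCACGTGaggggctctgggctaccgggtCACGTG
LAMP1: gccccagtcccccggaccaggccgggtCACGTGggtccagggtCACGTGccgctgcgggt
LAMP1 rose slightly, though it was called lower with the poly(A) spikes (-0.24), while the other 5 fell. CTSF and CD63, both called higher, also hold CACGTG, so the same letters stand before members of both directions. A match describes the letters only and says nothing of binding.

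**Figure D4:**
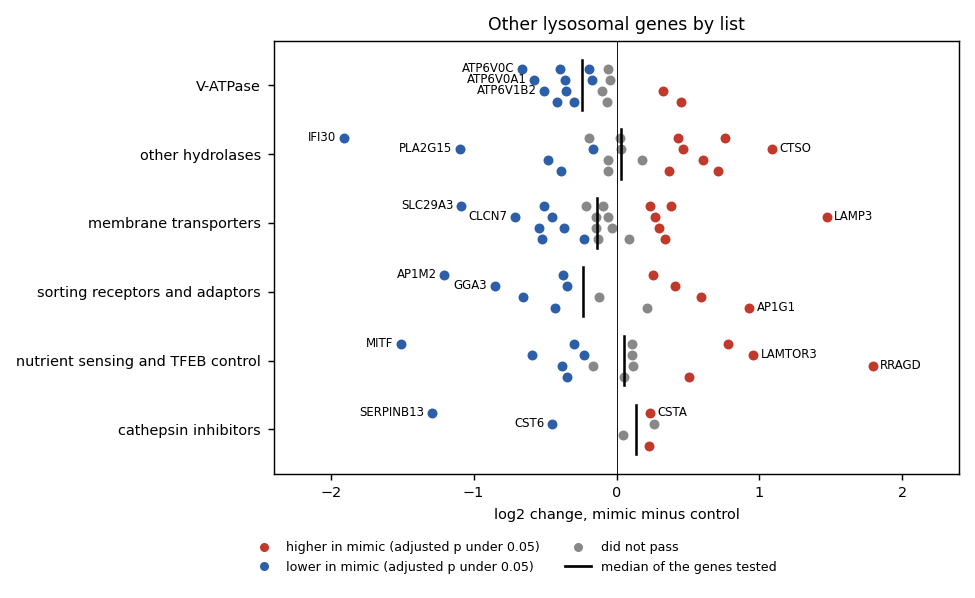
Log2 change (mimic minus control) of 89 other lysosomal genes in 6 lists, coloured by call at an adjusted p under 0.05, with the median of each list as a black line. The V-ATPase points lie mostly left of 0 (median -0.24), and the named genes are the 3 largest changes past the threshold in each list, among them RRAGD at 1.79 and IFI30 at -1.91.

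Other genes of the lysosome were taken as 6 lists, in which 25 of 89 genes tested rose and 37 fell. That is 69.7% called, where 55.0% of all genes tested were called, 28.1% higher and 26.9% lower. The median log2 change of the 89 was -0.10, and that of all genes -0.06. Of 16 genes of the V-ATPase and its accessory proteins 10 fell and 2 rose, with a median log2 change of -0.24. ATP6V0C, which forms the proton-carrying ring, fell by 0.66 ± 0.07, the membrane subunit ATP6V0A1 by 0.58 ± 0.09 and the catalytic-sector subunit ATP6V1B2 by 0.51 ± 0.05, though the last was at 0.03 without cross-hybridizing probe sets. The 2 that rose were the accessory protein ATP6AP2 (0.45 ± 0.05) and ATP6V0A2 (0.33 ± 0.09). The count of lower genes was 14 with the poly(A) spikes and 8 with the hybridization spikes. That of higher genes was 0 with the poly(A) spikes and 4 without cross-hybridizing probe sets. Of the lower genes, ATP6V0E1 had 2 of 3 other probe sets above background called higher. ATP6V0A1, ATP6V0D1, ATP6V1A, ATP6V1F, ATP6V1G1 and ATP6AP1 each had another one that fell. Among genes that did not pass, ATP6V1D had 2 other probe sets that rose, and ATP6V0B and ATP6V1C1 had 2 each that fell.

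Among 18 further hydrolases and their helpers 7 rose and 5 fell. IFI30, a thiol reductase of antigen processing, had the largest change (-1.91 ± 0.07), followed by the phospholipase PLA2G15 (-1.10 ± 0.12) and the cathepsin CTSO (1.09 ± 0.15). Of 22 membrane transporters and other membrane proteins 6 rose and 8 fell. LAMP3, an inducible relative of LAMP1 and LAMP2, rose by 1.47 ± 0.14, while the nucleoside transporter SLC29A3 (-1.09 ± 0.07) and the chloride exchanger CLCN7 (-0.71 ± 0.07) fell. Only 3 of these 22 were called higher without mimic replicate 1, and 3 without mimic replicate 2.

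In the 12 genes of sorting receptors and adaptors 4 rose and 6 fell. Both mannose 6-phosphate receptors rose, M6PR by 0.59 ± 0.06 and IGF2R by 0.26 ± 0.06, names chosen after their values were seen. The other M6PR probe set rose as well, but neither of the 2 other IGF2R probe sets above background passed. The AP-1 adaptor subunits split, with the epithelial mu subunit AP1M2 at -1.21 ± 0.08 and the gamma subunit AP1G1 at 0.93 ± 0.06, though AP1G1 was at -0.43 without cross-hybridizing probe sets, and the adaptor GGA3 fell by 0.85 ± 0.07.

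Of 15 genes of nutrient sensing and TFEB control 4 rose and 6 fell. RRAGD, a Rag GTPase that presents TFEB to mTORC1, went from 41.2 and 47.4 with miR-NC to 151.0 and 155.4 with the mimic. RRAGD rose by 1.79 ± 0.10 (limma adjusted p = 2.13e-07), and both of its other probe sets rose. MITF, the factor related to TFEB and TFE3, went the other way, from 130.5 and 113.3 to 44.0 and 41.3 (-1.51 ± 0.11, limma adjusted p = 9.34e-07), as did its other probe set. LAMTOR3, of the Ragulator scaffold that anchors the Rag GTPases, rose by 0.96 ± 0.08. Among 6 inhibitors of cathepsins 2 rose and 2 fell: SERPINB13, a serpin that inhibits cathepsins K and L, at -1.29 ± 0.10, the cystatin CST6 at -0.45 ± 0.09, and the cystatins CSTA and CST3 at 0.24 ± 0.04 and 0.23 ± 0.05. With the poly(A) spikes neither cystatin was called higher, and CSTA was at -0.11.

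Of the 28 members called, 11 kept their direction and their call in every one of the 17 alternative settings that tested them. CTSF, which is dim, was not tested with the 50th percentile filter. The 11 were GM2A, CTSA, NEU1, PSAP, ARSA, CTSD and TPP1 among the lower ones and FUCA1, CTSV, CTSF and LAMP2 among the higher ones. The split of the 11 by direction depends on the poly(A) setting, which lowers every gene and so works against higher calls only. GLB1, GALC, CTSB, CTSC, CTSZ and CD63, all higher, lost their call in that setting alone.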

How the data were processed

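SCC-9 RNA was hybridized to 4 arrays, 2 per group, and the sample titles gave the groups. The deposited values are probe set intensities, made with RMA per the submitters' processing notes. RMA normally gives log2 values, but these run from 2.09 to 17329, so the intensity values were read as linear and their log2 was taken. Normalization between arrays hides a change of all transcripts in 1 direction. The number of arrays limits the precision.

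Of 49395 probe sets, 44988 had 1 gene symbol in the platform annotation, and those with several or none named no gene. A gene was represented by the probe set with the highest mean. The limit was the 30th percentile of the means of all probe sets other than controls (12.04). Genes over it were tested with limma 3.58.1 in R 4.3.3 (lmFit, eBayes with a mean-variance trend, Benjamini-Hochberg adjustment over 14122 genes, threshold 0.05, two-sided). Calls of single probe sets came from the same fit over all probe sets past that limit. Errors are SEs of log2 changes from 2 residual degrees of freedom and a prior of 8.35. Background was the brightest of 20 control probe sets with no human target (16.8 at most); a gene not above it on either array of a group is given as a bound, set against that control or the gene itself, whichever was higher per array. Cross-hybridizing probe sets are those with the suffixes _s_at and _x_at.

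Members, lists, tests and alternatives were chosen with earlier results of these data known. Named genes are all members and, of each other list, the 3 largest changes among those past the threshold; ATP6AP2, ATP6V0A2, M6PR, IGF2R and CST3 were added after their values were seen. Another probe set of a gene counts as above background where it was so on both arrays of at least 1 group. Replicate numbers are shared by both groups, but nothing in the labels pairs the arrays. Where 1 array was left out, the lone array of its group was assumed to vary like the other group. Tested on simulated data with 200 of 14122 genes changed, the fit found 22% of the changes at 1.25-fold, 76% at 1.5-fold, 98% at 2-fold and 100% at 4-fold, and 8 of its 156 calls were false. The simulated spreads were drawn from the fitted prior, and far fewer genes were changed than the 55.0% called in the data. These rates therefore need not hold for the calls given here. No protein or transcript sequences were used here.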

Additional observations from a re-analysis of the deposited data

How the results depend on the processing

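With the arrays scaled to the poly(A) spikes, members higher numbered 4 and lower 29, all genes 1613 and 8200, the other lists 10 and 59, and the members' median log2 change was -0.32. Its values for members that changed sign were HEXA -0.26, IDS -0.18, NAGLU -0.16, MAN2B1 -0.32, MANBA -0.21, CTSH -0.24, CTSL -0.30, CTSS -0.22, CTSZ -0.0042, LGMN -0.22, PPT1 -0.32, SCARB2 -0.18, LAMP1 -0.24 and CD63 -0.030, and CSTA among the other genes was at -0.11. Of the members that changed sign, HEXA, MAN2B1, CTSH, CTSL, LGMN, PPT1 and LAMP1 were called lower, and the others were not called. Members with the same sign that became calls, all lower, were SMPD1 (-0.41), ASAH1 (-0.45), GUSB (-0.42), SGSH (-0.63), GAA (-0.45), NPC2 (-0.41), GNPTG (-0.50) and TFEB (-0.39). The cause of the spike offset was not tested. The members' median was also -0.065 when probe sets were averaged and -0.078 without cross-hybridizing ones. Signs also turned with the mean of all probe sets for HEXA (-0.0024), ASAH1 (0.10), CTSH (-0.18) and PPT1 (-0.25), and without cross-hybridizing probe sets for HEXA (-0.37), IDS (-0.24), MANBA (-0.094), LGMN (-0.084), PPT1 (-0.30), ATP6V1B2 (0.034) and AP1G1 (-0.43). A further quantile normalization turned MAN2B1 (-0.010) and PPT1 (-0.036), and the hybridization spikes TFEB (0.011). Leaving out 1 array gave 10 to 15 members higher and 10 to 14 lower, 2509 to 4041 genes lower overall (the lowest without mimic replicate 2), and log2 changes on both sides of 0 for 5 members that did not pass, SMPD1 (-0.20 to 0.068), CTSL (-0.0086 to 0.10), CTSS (-0.013 to 0.26), PPT1 (-0.050 to 0.10) and TFEB (-0.16 to 0.080). With the replicate number as a block (replicate block), 15 members were higher and 15 lower, the 28 called without it and also IDS (higher) and SGSH (lower); deviations of same-numbered arrays correlated at 0.08 across genes, too little to pair them. Dim members near 16.8, such as CTSS, CTSF and TFE3, have the least signal over background.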

Other observations

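The 47 members had 147 probe sets between them; 37 members had several, and 34 had another one above background. In 17 of the 28 members called, a further such probe set passed the same way, and in 0 did one pass in the opposite direction. The 28 include NEU1, CTSF, CTSK, CTSZ and TFE3, which had no other probe set above background. The same shares over all genes called were not computed, so these counts are not a trait of the members. In some members whose brightest probe set did not pass, chosen here after their values were seen, the probe sets differed. The ASAH1 probe sets lay apart, with 2 at 0.48 ± 0.10 and 0.51 ± 0.10 and the others at -0.11 ± 0.09, -0.14 ± 0.10 and -0.23 ± 0.15. For IDS the values were 0.61 ± 0.10 and 0.34 ± 0.12 in 2 probe sets and -0.24 ± 0.10 and -0.24 ± 0.09 in 2 others, beside 0.16 ± 0.07 in the brightest. For PPT1 the 5 probe sets other than the brightest ran from -0.39 ± 0.10 to -0.20 ± 0.10.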
